A study of Mus musculus with 9 samples.

Results

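Oligodendrocyte lineage cells of the mouse neocortex at E18.5 were described here, in single-cell RNA sequencing of WT and *Tcf4* KO embryos. A cell was taken as a member when it held at least 1 unique molecular identifier (UMI, a tag that marks 1 captured transcript) of *Olig1*, at least 1 UMI of *Pdgfra*, *Lhfpl3* or *Sox10*, and none of *Neurod6*, *Gad1* or *Gad2*. Cells with more than 1% of UMIs on haemoglobin genes had been dropped before. The rule found 97 members among 19686 kept cells of 9 libraries, and these 97 cells carried 448209 UMIs. The detection of these 7 genes chose the members, so their values are a description and were not tested.

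Each library came from the neocortex of 1 animal, and 5 libraries were labelled WT (WT1 to WT5) and 4 KO (KO1, KO2, KO4 and KO5). The animals were littermates from crosses of mice that carried 1 mutant *Tcf4* allele, and KO embryos were homozygous for a lacZ and neomycin cassette placed before exon 4. The cassette removes the long isoform of TCF4 in every cell of the embryo, while shorter isoforms persist, and reads of the 3′ chemistry do not tell these isoforms apart. The study compared 3 WT with 2 KO libraries, which its methods do not name. From its limits on cell number and *Tcf4* these were taken here to be WT2, WT3 and WT4 for WT and KO4 with KO5 for KO.

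Oligodendrocytes wrap axons of the central nervous system in myelin. They arise from oligodendrocyte precursor cells (OPCs), which are specified by the basic helix-loop-helix (bHLH) factors OLIG1 and OLIG2, maintained by SOX factors, and divide in response to platelet-derived growth factor through the receptor that *Pdgfra* encodes. In the mouse neocortex OPCs arrive from ventral sources before birth and are joined by cells of cortical origin around birth, and myelin forms after birth. OLIG proteins and other bHLH factors bind DNA together with E-proteins, to which TCF4 belongs, and ID proteins bind E-proteins without binding DNA.

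The depth and the targeted gene were looked at first. Libraries held between 348105 and 29767293 UMIs in their deposited cells, and the median kept cell had 2217 to 4359 UMIs. *Tcf4* averaged 12.2 to 12.6 UMIs per 10000 in kept cells of the 3 WT libraries of this comparison, against 7.59 to 9.29 in its 2 KO libraries. In WT1 (4.61), WT5 (7.20) and KO1 (16.7) it went against the label, so these are named as labelled and enter only fits that say so. *Actb* averaged 40.5 to 64.3 in the same WT libraries, against 170 to 172 in the KO libraries. Here too WT1 (200), WT5 (197) and KO1 (49.8) went against their label, and KO2 stood at 142. The haemoglobin limit dropped 0.420 to 1.34% of cells in WT2, WT3 and WT4, against 13.9% in KO4 and 40.4% in KO5. Of 22147 cell barcodes 324 occurred in more than 1 library, among them the barcodes of 2 members.

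*Olig1* (ENSMUSG00000046160, chr16:91269772-91271933 on the plus strand of GRCm38) was the most abundant of the genes of the rule. Its mean level per member was 21.8 UMIs per 10000 in WT2, 17.5 in WT3, 20.5 in WT4 and 16 in KO4. In radial glia and astrocytes of the same libraries it was 1.76, 0.921, 1.93 and 0.298. These cells were set apart by *Slc1a3* together with *Aldoc*, *Aqp4* or *Gja1*, again without *Neurod6*, *Gad1* or *Gad2*, and numbered 374. *Pdgfra* (ENSMUSG00000029231, chr5:75152292-75198215, plus strand) averaged 7.42, 6.43, 4.84 and 4.53 in members of WT2, WT3, WT4 and KO4. *Lhfpl3* (ENSMUSG00000106379, chr5:22746059-23275597, plus strand), which encodes a tetraspan membrane protein, averaged 4.92, 2.17, 2.45 and 3.06. *Sox10* (ENSMUSG00000033006, chr15:79154908-79165240, minus strand), a factor of the whole lineage, averaged 0.646, 1.0, 1.20 and 1.06.

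Among the 97 members 82 held *Pdgfra*, 52 *Lhfpl3* and 38 *Sox10*, and 21 held all of these 3 genes, 33 held 2 and 43 held 1. The number of *Olig1* UMIs per member ran from 1 to 28 with a median of 8. Just inside the rule stood 8 members with a single *Olig1* UMI (3 in WT4, 3 in KO4, 1 in WT5 and 1 in KO2) and 3 with 2 UMIs (1 each in WT2, WT4 and KO4). The other 86 had 3 or more and came from WT2 (5), WT3 (15), WT4 (63) and KO4 (3). Just outside stood 313 cells with *Olig1* and none of the 3 second genes, of which 66 had 3 or more *Olig1* UMIs, and 90 cells with a second gene and no *Olig1*.

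The 8 members with 1 *Olig1* UMI differed in level from the rest of the members in genes that the rule did not use. Their mean levels of the neuronal genes *Tubb3* and *Stmn2* were 14.7 and 15.5 UMIs per 10000, against 4.94 and 3.25 in members with 3 to 9 *Olig1* UMIs and 5.23 and 4.21 in members with 10 or more. *Ptprz1*, a receptor phosphatase of glia and their progenitors, averaged 5.24 in the 8 cells, 13.4 with 3 to 9 and 13.2 with 10 or more. Since a few *Olig1* UMIs also occurred in neurons, at 0.215 to 0.497 UMIs per 10000 in the *Neurod6* neurons of WT2, WT3, WT4 and KO4, free RNA and a low level in the cell cannot be told apart for these members. Cells of 1 library share their animal, so no test was run over cells.

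**Figure D1:**
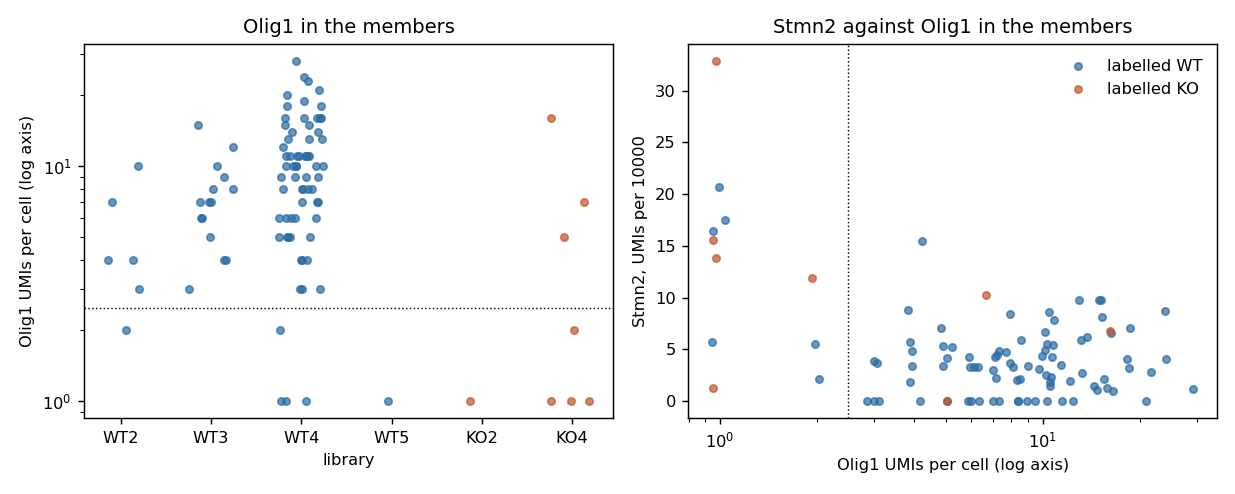
Left, Olig1 UMIs of each member (points, log axis) by library; right, Stmn2 in UMIs per 10000 against Olig1 UMIs per cell (log axis), with points moved slightly sideways so that they do not hide each other. The dotted line separates the 11 members with 1 or 2 Olig1 UMIs from the 86 with 3 or more; all 15 members of WT3 lie above it, and 4 of the 7 of KO4 lie below it.

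The label was checked against genes outside the rule. *Olig2*, the partner of *Olig1*, was detected in 59.8% of members, 8.3% of radial glia and astrocytes and 2.6% of *Neurod6* neurons (12821 cells with *Neurod6* and *Tubb3* and no *Gad1* or *Gad2*). *Cspg4*, which encodes the NG2 proteoglycan of OPCs, was found in 24.7% of members, in none of the 374 radial glia and astrocytes, which allows up to 0.802% of cells with a UMI, and in 0.7% of neurons. It was present in 3 of 6 members of WT2, 2 of 15 of WT3, 19 of 67 of WT4 and 0 of 7 of KO4. Members and radial glia and astrocytes had median depths of 4638 and 4574.5 UMIs in WT4, 4254 and 4474.5 in WT3, 2314 and 2614 in WT2, and 2936 and 2894.5 in KO4. Genes of microglia and fibroblasts were near 0 in members: of 12 microglia genes 8 had no UMI in any member and the list summed to 0 to 0.297 UMIs per 10000 in members, and 8 of 10 fibroblast and choroid genes had none, with sums of 0 to 1.06. The endothelial and mural genes summed to 0 to 2.56 in members and 1.59 to 6.78 in radial glia and astrocytes. Neuronal RNA was not near 0: the glutamatergic list summed to 3.62 to 12.2 in members against 21.5 to 28.4 in *Neurod6* neurons, and the interneuron and striatal list to 5.92 to 10.1 against 10.9 to 14.2. The radial glia and astrocyte list summed to 95.9 to 133 in members against 231 to 421 in that class. These ranges of list sums cover WT2, WT3, WT4 and KO4 only. In WT5 the last list summed to 301 in its 1 member and to 188 in 10 radial glia and astrocytes.

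Members were few in every library and their share differed between libraries. They made up 0.506% of kept cells in WT2 (6 of 1185, exact 95% binomial interval 0.186 to 1.10%), 0.928% in WT3 (15 of 1617, 0.520 to 1.53%) and 1.09% in WT4 (67 of 6173, 0.842 to 1.38%). In KO4 they made up 0.167% (7 of 4201, 0.0670 to 0.343%), and in KO5 0 of 2303 cells (0 to 0.160%). These intervals cover counting error only. The library labelled WT5 held 1 member in 3630 cells (0.0275%) and KO2 held 1 in 118 (0.847%, 0.0215 to 4.63%). WT1 and KO1 held none in 127 and 332 cells, with exact intervals up to 2.86 and 1.10%.

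The mean share over the 3 WT libraries was 0.840%, that over the 2 KO libraries 0.0833%, and the libraries of the genotypes did not overlap. The difference of -0.756 percentage points gave p = 0.2 in a 2-sided exact permutation test over the 5 libraries, whose smallest p is 0.1, so this design cannot reach 0.05. Over all 9 libraries as labelled it was -0.256 points (exact permutation p = 0.405). Among the libraries deposited as counts the share was 1.09% in WT4, 0.0275% in WT5, 0.167% in KO4 and 0 in KO5, and among those deposited as logarithms it was 0, 0.506 and 0.928% in WT1, WT2 and WT3 and 0 and 0.847% in KO1 and KO2. In these data a smaller number of members and less *Olig1* RNA per cell cannot be told apart, since a cell that falls below detection leaves the count.

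The other glial class stood lower in the same KO libraries. Radial glia and astrocytes made up 3.8% of kept cells in WT2, 3.46% in WT3, 2.62% in WT4, 0.905% in KO4 and 0.825% in KO5, a difference of -2.43 points (exact permutation p = 0.1, the smallest that 3 against 2 libraries allow). Over all 9 libraries as labelled this difference was 1.16 points in the other direction (exact permutation p = 0.659). As a share of both glial classes together, members made up 11.8% in WT2, 21.1% in WT3, 29.3% in WT4, 15.6% in KO4 and 0% in KO5, so that KO4 lay between WT2 and WT3 (difference -12.9 points, exact permutation p = 0.3). In KO4 *Neurod6* was detected in 88.2% of 34 cells with both *C1qb* and *C1qc*, genes of microglia, and in KO5 in 77.8% of 9. Among such cells it was detected in 59.0% of 61 in WT4 and 73.7% of 19 in WT5. The part of this background in the shares was not tested beyond the gates without a neuronal limit given below, and that of *Actb* was not tested.

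**Figure D2:**
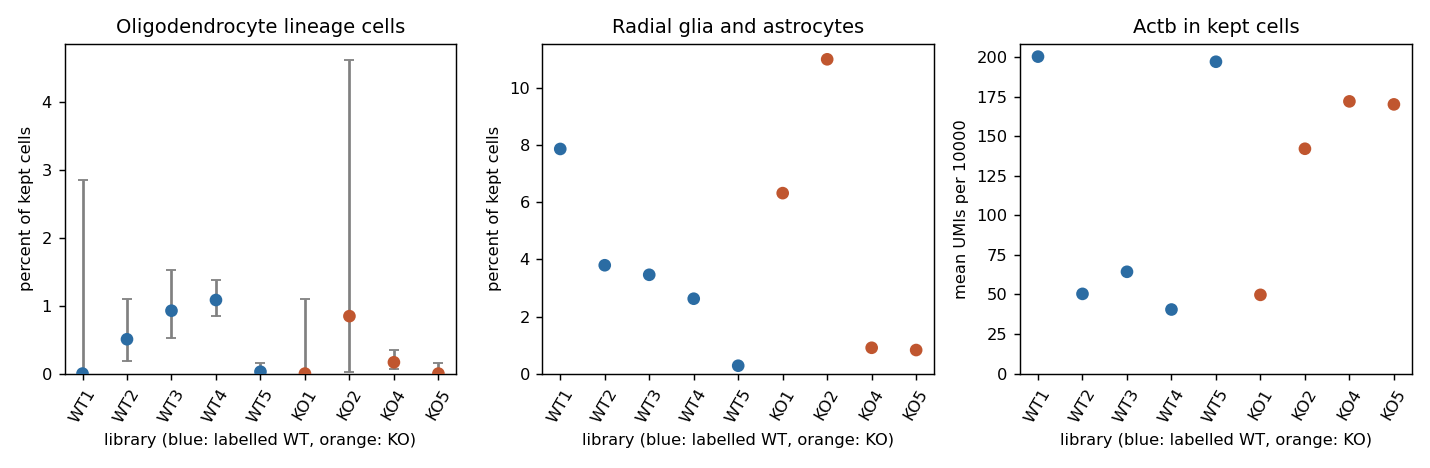
Members in percent of kept cells with exact 95% binomial intervals (left), radial glia and astrocytes in percent of kept cells (middle) and mean Actb in UMIs per 10000 (right), 1 point per library, blue for libraries labelled WT and orange for KO. WT2, WT3 and WT4 lie at 0.506 to 1.09% in the left panel and 2.62 to 3.8% in the middle one, above KO4 and KO5, while WT5 and KO2 go against their groups.

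The limit on neuronal genes decided how many cells were counted. It left out 143 cells that met every other condition, 130 of them for *Neurod6*, and 92 of the 143 had 3 or more *Olig1* UMIs (7 in WT2, 10 in WT3, 74 in WT4 and 1 in KO4). In 51 of these 92 cells the reason was a single UMI over the 3 neuronal genes. Pooled over libraries, their means beside those of the 86 members with 3 or more *Olig1* UMIs were *Tubb3* 5.72 against 5.07, *Ptprz1* 13.2 against 13.3, *Olig2* 3.11 against 2.81, and *Ppp1r14b* 11.1 against 9.44 UMIs per 10000. *Stmn2* was 5.84 against 3.70 and *Serpine2* 4.05 against 6.59, and the median left-out cell held 5349.5 UMIs against 4476. Most of both groups came from WT4, and within libraries the means lay further apart. *Ptprz1* was 14.0 against 6.62 in WT2, 18.9 against 13.4 in WT3 and 12.3 against 13.8 in WT4, and *Serpine2* was 7.36 against 1.66, 5.79 against 14.1 and 3.52 against 5.17. *Neurod6* was found in 69.5% of the 131 cells with *C1qb* and *C1qc* and in 55.4% of the 193 cells with the endothelial genes *Cldn5* and *Flt1*, which had median depths of 2872 and 3087 UMIs.

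Without the neuronal limit the share was 1.18% in WT2, 1.79% in WT3, 2.62% in WT4, 0.571% in KO4 and 0.174% in KO5, a difference of -1.49 points (exact permutation p = 0.2). Cells with 3 or more *Olig1* UMIs and no other condition made up 2.79% in WT2, 3.09% in WT3, 3.71% in WT4, 0.381% in KO4 and 0% in KO5, a difference of -3.01 points (exact permutation p = 0.1, the smallest possible). WT5 held 0.0551% of such cells, and WT1, KO1 and KO2 held none.

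**Figure D3:**
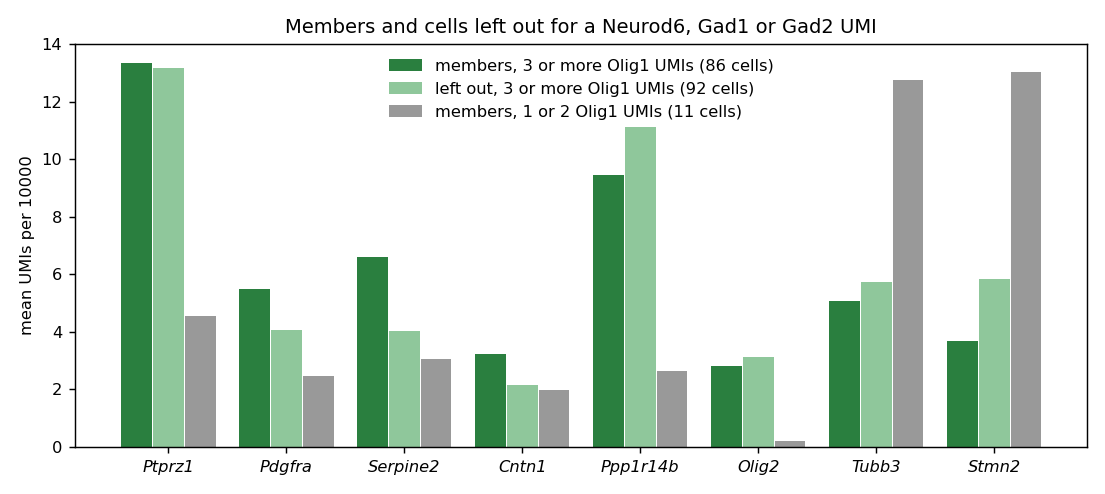
Mean levels (bars, UMIs per 10000, all libraries pooled over cells, no error drawn) of 8 genes in members with 3 or more Olig1 UMIs (86 cells), cells left out for a Neurod6, Gad1 or Gad2 UMI with 3 or more Olig1 UMIs (92 cells) and members with 1 or 2 Olig1 UMIs (11 cells). The first 2 groups stand at 13.3 and 13.2 for Ptprz1 and at 5.07 and 5.72 for Tubb3, while the 11 cells stand at 4.54 and 12.8.

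To ask which genes set members apart from their closest glial relatives, members were compared with radial glia and astrocytes of the same library. Levels are means over cells of UMIs per 10000, and differences are on the scale of log2(level + 1), members minus radial glia and astrocytes, which understates changes of low genes. The planned fit used the libraries with at least 10 cells of both classes, WT3 and WT4, and limma called 440 of 3222 genes (13.7%) at an adjusted p under 0.05, of which 198 (6.15%) were higher in members and 242 (7.51%) lower. With at least 5 cells, which adds WT2 and KO4, 162 of 3140 genes (5.16%) passed, 50 higher (1.59%) and 112 lower (3.57%). The fits shared 48 rises (1.49%) and 105 falls (3.26%), and 9.84% of genes were higher and 13.9% lower in members in 4 of 4 libraries. Leaving out WT2, WT3 or WT4 left 104, 80 or 89 calls. Without the filter on low levels, over 14265 genes, 23 genes were called, and only 2 of them were higher in members (*Cntn1* and *Ncald*). Every other rise called with 4 libraries thus lost its call there. Only 21 genes were called lower, against 112 with the filter, so most falls lost their call too, among them *Sparcl1* and *Gstm1*. Both classes were chosen by genes of the same cells, so an adjusted p is not independent of that choice. With 1 value for each library and class, limma shared its variance estimates across genes, on which the fit of 2 libraries leans most. A call therefore does not say that a difference held in every library, as *Ptprz1* below shows. Genes of either rule were left out.

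*Serpine2*, *Cntn1* and *Ppp1r14b* are described first. *Serpine2* (ENSMUSG00000026249, chr1:79794197-79861180, minus strand), which encodes a secreted inhibitor of serine proteases, stood at 5.07 in members of WT2, 14.1 in WT3, 4.98 in WT4 and 3.48 in KO4, and at 2.05, 0.745, 1.10 and 0.473 in radial glia and astrocytes. It was higher in members in 4 of 4 libraries, with WT3 the highest, and the log2 difference was 2.31 ± 0.21 (SE) with 2 libraries and 1.81 ± 0.27 with 4 (limma adjusted p = 5.90e-12 and 4.18e-04). *Cntn1* (ENSMUSG00000055022, chr15:92051165-92341967, plus strand), an adhesion molecule of the immunoglobulin superfamily, stood at 2.57, 4.24, 3.03 and 2.40 in members and 0.188, 0.0267, 0.133 and 0.336 in the other class. The classes did not overlap, and the log2 difference was 2.09 ± 0.19 and 1.78 ± 0.23 (limma adjusted p = 5.05e-24 and 8.97e-05). Below 0.5 in the other class, *Cntn1* passed the filter on low levels only through the members, so these adjusted p describe and do not test. Without the filter it kept its call with 4 libraries (limma adjusted p = 0.0159).

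*Ppp1r14b* (ENSMUSG00000056612, chr19:6974968-6977324, plus strand), which encodes an inhibitor of protein phosphatase 1, stood at 8.46, 10.6 and 9.30 in members of WT2, WT3 and WT4 and 0.396 in KO4, against 1.94, 0.955, 1.58 and 1.25 in radial glia and astrocytes. It was thus higher in members of the 3 WT libraries. The lower value in KO4 rests on 1 UMI in 7 members, too few to place it below radial glia and astrocytes. The log2 difference was 2.28 ± 0.17 with WT3 and WT4 (limma adjusted p = 5.89e-37) and 1.39 ± 0.45 with 4 libraries (limma adjusted p = 0.155), and 2.08 without KO4 (limma adjusted p = 8.88e-05).

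*Nap1l5*, a nucleosome assembly protein gene, stood at 3.05, 4.37, 2.19 and 2.02 in members of WT2, WT3, WT4 and KO4 and at 0.406, 0.185, 0.307 and 0.701 in the other class (log2 difference 1.46 ± 0.24 with 4 libraries, limma adjusted p = 9.74e-04). *Ncald*, which encodes the calcium sensor neurocalcin delta, stood at 3.41, 3.76, 3.38 and 1.74 against 0.419, 0.517, 0.625 and 0.296 (1.45 ± 0.22, limma adjusted p = 4.18e-04). In both genes every library had the higher value in members, and members and the other class did not overlap. *Nap1l5* stood below 0.5 in that class in WT2, WT3 and WT4 and passed the filter only through the members. Its adjusted p therefore describes and does not test, and without the filter it was 0.0686 (limma, 4 libraries). The same limit applies to any gene named below that is low in that class. *Epn2*, an adaptor of endocytosis, rose by 1.23 ± 0.23 (limma adjusted p = 0.00298), *Ostf1* by 1.26 ± 0.22 (0.00141), *Cdo1*, the cysteine dioxygenase, by 1.08 ± 0.21 (0.00478) and the protocadherin *Pcdh11x* by 1.02 ± 0.23 (0.0135), each on the log2 scale with 4 libraries and each higher in 4 of 4. The call of *Pcdh11x* was lost without WT2 (0.94, limma adjusted p = 0.0556) and without WT3 (0.85, limma adjusted p = 0.289). After each cell was thinned to 1800 UMIs *Ostf1* (0.75, limma adjusted p = 0.166) and *Cdo1* (0.76, limma adjusted p = 0.165) lost theirs, as did *Olig2* (0.63, limma adjusted p = 0.289).

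Of 13 specification factors 8 passed the filter of a mean level of 0.5, and 3 were higher and none lower in members with 2 libraries, 2 and none with 4. Over all genes tested 6.15% were higher and 7.51% lower with 2 libraries, and 1.59% and 3.57% with 4. The median log2 difference over the 8 was 0.46 against -0.02 over all genes tested. A gene low in radial glia passes this filter only through the members, so the counts of this and the following lists describe and do not test them. *Olig2* (ENSMUSG00000039830, chr16:91225457-91228677, plus strand, the neighbour of *Olig1*) stood at 0.735 in members of WT2, 0.906 in WT3, 3.18 in WT4 and 1.75 in KO4, against 0.399, 0.0456, 0.313 and 0.195. It was higher in members in every library, with WT4 far above WT2 and WT3, and 48 of 67 members of WT4 held it against 1 of 6 in WT2, 5 of 15 in WT3 and 3 of 7 in KO4. The log2 difference was 1.27 ± 0.20 with 2 and 1.01 ± 0.24 with 4 libraries (limma adjusted p = 6.89e-09 and 0.0177), and it was 0.79 without WT4 and 0.95 without KO4 (limma adjusted p = 0.206 and 0.0668). *Olig2* too passed the filter only through the members, so these adjusted p describe and do not test. Without the filter it was not called with 4 libraries (limma adjusted p = 0.301).

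*Sox6*, which keeps OPCs undifferentiated, stood at 2.80, 2.39, 2.42 and 1.54 in members of WT2, WT3, WT4 and KO4 and 0.798, 0.961, 0.591 and 0.491 in the other class (log2 difference 0.94 ± 0.21 with 4 libraries, limma adjusted p = 0.0145). *Sox8*, a SOXE factor like *Sox10*, was called with 2 libraries only (0.84 ± 0.20, limma adjusted p = 2.84e-04, and 0.53 ± 0.23 with 4, adjusted p = 0.246), and no member of KO4 held it. *Sox9*, shared by both glial classes, stood at 3.47, 3.45, 3.59 and 1.62 against 1.67, 2.09, 2.65 and 1.90 and was called in neither fit (limma adjusted p = 0.110 and 0.439). *Nkx2-2* was found in 6.2% of members on 7 UMIs and *Myt1* in 18.6%, and both stayed below the filter.

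**Figure D4:**
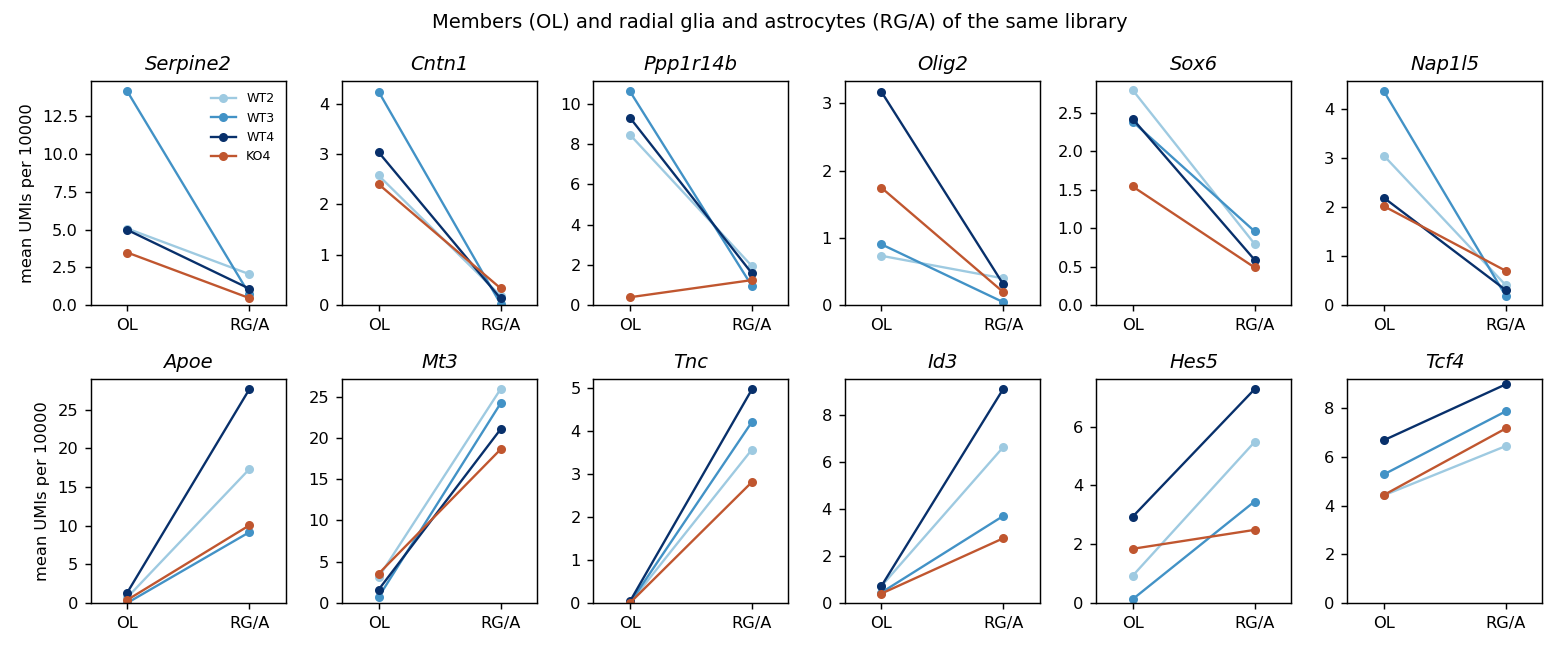
Mean levels (UMIs per 10000) of 12 genes in members (OL) and in radial glia and astrocytes (RG/A), with a line for each of WT2, WT3 and WT4 (blue) and KO4 (orange). Serpine2, Cntn1, Olig2, Sox6 and Nap1l5 are higher in members in all 4 libraries, Ppp1r14b in WT2, WT3 and WT4 only, and Apoe, Mt3, Tnc, Id3, Hes5 and Tcf4 are lower in members in all 4.

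Of 30 surface and signalling genes of OPCs 15 were tested with 2 libraries (5 higher, 3 lower, 7 not called, median log2 difference 0.34) and 13 with 4 (4 higher, 2 lower, 7 not called). The shares over all genes were 6.15% higher and 7.51% lower with 2 libraries, and 1.59% and 3.57% with 4. Besides *Serpine2* and *Cntn1*, *Scrg1* rose by 1.01 ± 0.22 and the AMPA receptor subunit *Gria2* by 0.69 ± 0.19 on the log2 scale with 4 libraries (limma adjusted p = 0.0114 and 0.0425). *Gria2* was not called with 2 libraries (0.40 ± 0.18, limma adjusted p = 0.130). *Ptprz1* was lower in members, at 5.51, 13.4, 13.0 and 10.4 in WT2, WT3, WT4 and KO4 against 15.7, 22.3, 25.3 and 10.1 (log2 difference -0.73 ± 0.17, limma adjusted p = 0.0179), and KO4 alone had a slightly higher value in members. The tetraspanin *Cd9* was lower in 4 of 4 libraries (-0.83 ± 0.22, limma adjusted p = 0.0319).

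Of 12 genes of the extracellular matrix linked to OPCs 7 were tested, and 4 fell and none rose in both fits. Beside them 7.51% of all genes fell with 2 libraries and 3.57% with 4. The 4 genes are named next. These were *Ncan* (-1.05 ± 0.25 with 4 libraries, limma adjusted p = 0.0174), *Tnc*, *Sparc* (-1.82 ± 0.23, adjusted p = 7.56e-05) and *Sparcl1*, which radial glia or astrocytes also make. The proteoglycan genes *Bcan* and *Cspg5* stood higher in members in 4 of 4 libraries and were not called (log2 differences 0.61 ± 0.21 and 0.59 ± 0.21 with 4 libraries, limma adjusted p = 0.128 and 0.139). *Vcan* stood at 0, 1.22, 1.90 and 0.778 against 0.468, 0.677, 1.26 and 0.817 and was not called either (limma adjusted p = 0.951).

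Of 30 genes on the list of radial glia and astrocytes 27 were tested, and 21 fell and none rose in each fit. Over all genes 7.51% fell with 2 libraries (242 of 3222) and 3.57% with 4 (112 of 3140). The other class was chosen by *Slc1a3* with *Aldoc*, *Aqp4* or *Gja1*, so the counts of this list describe and do not test. *Apoe*, the lipid carrier of astrocytes, stood at 0.710 in members of WT2, 0 in WT3, 1.34 in WT4 and 0.389 in KO4, against 17.3, 9.14, 27.6 and 10.0 (log2 difference -3.34 ± 0.18 with 4 libraries, limma adjusted p = 1.31e-09). *Mt3*, a metallothionein of the brain, stood at 3.12, 0.718, 1.61 and 3.54 against 25.9, 24.2, 21.1 and 18.6 (-2.94 ± 0.21, limma adjusted p = 4.44e-08). For both genes the classes were far from overlapping. *Tnc*, the matrix protein tenascin C, had 1 UMI over the members of all 4 libraries. In WT3, with 0 UMIs in 15 members, its level was at least 9.17-fold lower than in radial glia and astrocytes, taking 3 UMIs over the members of that library as the floor.

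The metallothionein genes *Mt1* and *Mt2* had log2 differences of -2.25 ± 0.20 and -2.07 ± 0.21, and *Sparcl1*, *Gstm1* and *Fam210b* of -1.71 ± 0.27, -1.61 ± 0.25 and -1.58 ± 0.23, each lower in 4 of 4 libraries (limma with 4 libraries, adjusted p = 7.36e-07, 3.83e-06, 7.80e-04, 5.81e-04 and 4.18e-04). *Fabp7*, a fatty acid binding protein of progenitors, stayed abundant in members at 70.0, 45.3, 50.2 and 55.8 against 149, 172, 181 and 83.4 (-1.35 ± 0.22, limma adjusted p = 0.0180), with the smallest gap in KO4, and it was not called after thinning (-1.38, limma adjusted p = 0.135).

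Genes of early OPCs were often too sparse for the fit and are given as shares of cells with at least 1 UMI over all 97 members and 374 radial glia and astrocytes. The Notch ligands *Dll1* and *Dll3* were found in 34.0 and 29.9% of members against 4.5 and 2.7%. *Pcdh15* was found in 25.8% against 1.9%, *Tnr*, which encodes tenascin R, in 22.7% against 0.8%, *C1ql1* in 21.6% against 2.1%, and *Matn4* and *S100b* each in 18.6% against 0.3%. These shares are pooled over libraries, and 67 of the 97 members but 162 of the 374 other cells came from WT4, where both classes were deeper than in WT2, WT3 and KO4. Within WT4 *Dll1* was found in 38.8% of members against 4.94% and *Dll3* in 43.3% against 3.70%, *Pcdh15* in 28.4% against 1.85% and *C1ql1* in 29.9% against 3.70%. *Tnr*, *Matn4* and *S100b* were found there in 22.4, 20.9 and 23.9% of members and in none of the 162 other cells.

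Genes of the step after the OPC were present in some members. *Gpr17*, a receptor of OPCs that commit to differentiate, was found in 21.6% of members (36 UMIs) against 0.3%, in 1 of 6, 0 of 15, 18 of 67 and 2 of 7 members of WT2, WT3, WT4 and KO4. *Bcas1*, a gene of early myelinating cells, was found in 24.7% (31 UMIs) against 0.3%, in 0, 3, 20 and 1 members of these libraries, and *Itpr2* in 14.4% against 2.1%. *Bmp4*, *Epcam* and *Kif19a*, also on the list of committed precursors, had no UMI in members, which allows up to 3.09% of cells with a UMI.

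Among the myelin genes *Cnp*, an enzyme that appears before myelin, was found in 44.3% of members (58 UMIs) against 10.2% of radial glia and astrocytes, and was called with 2 libraries (log2 difference 0.86 ± 0.19, limma adjusted p = 1.10e-04) and not with 4 (0.40 ± 0.24, adjusted p = 0.467). *Pllp* was found in 11.3% against 0.3% (13 UMIs). *Mbp*, the myelin basic protein, was found in 4.1% (6 UMIs) against 0.8%, with 1.9% of neurons. *Mag*, *Mal* and *Ermn* had no UMI in members.

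**Figure D5:**
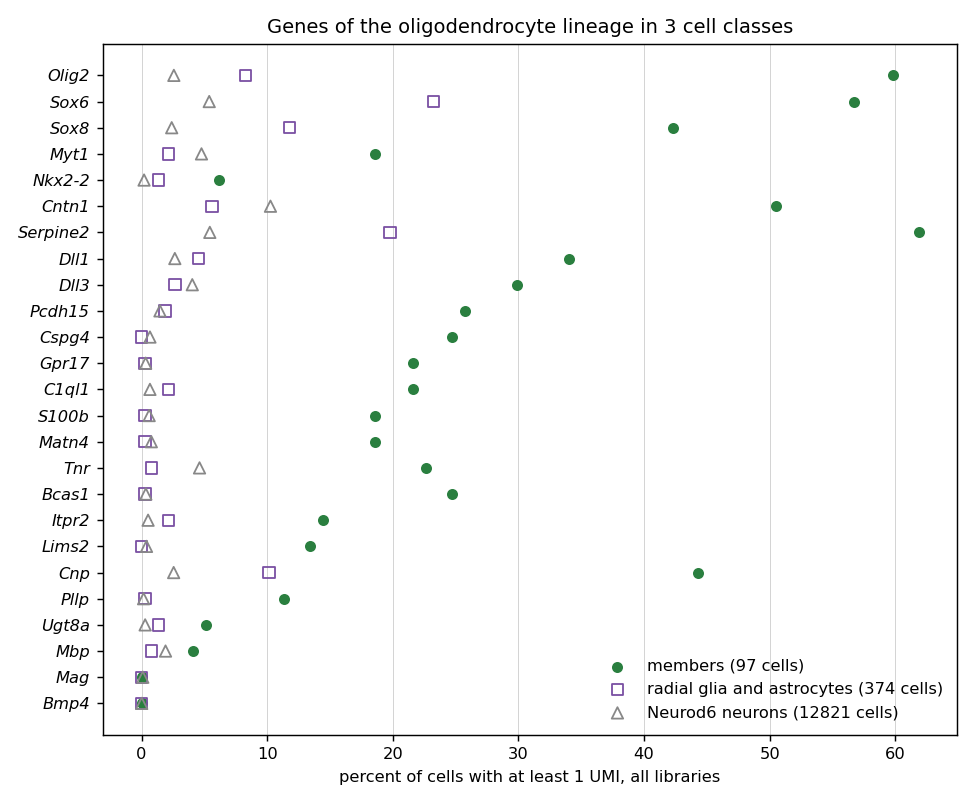
Share of cells with at least 1 UMI (percent, horizontal axis) for 25 genes of the oligodendrocyte lineage in members (97 cells, circles), radial glia and astrocytes (374 cells, squares) and Neurod6 neurons (12821 cells, triangles), over all libraries. Olig2, Cspg4, Gpr17 and Bcas1 stand at 59.8, 24.7, 21.6 and 24.7% in members, whereas Mbp stands at 4.1% and Mag and Bmp4 are at 0.

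The targeted gene and its partners were read in the same comparison. *Tcf4* stood at 4.42 in members of WT2, 5.28 in WT3, 6.69 in WT4 and 4.44 in KO4, at 6.45, 7.88, 8.99 and 7.17 in radial glia and astrocytes, and at 13.6, 13.8, 13.9 and 9.46 in *Neurod6* neurons. Members had the lowest of the 3 levels in each library. The difference between members and radial glia and astrocytes was -2.45 UMIs per 10000 in WT3 and WT4 (exact sign-flip permutation p = 0.5, the smallest for 2 libraries) and -2.41 in 4 libraries (exact permutation p = 0.125, the smallest for 4). In the fit over genes *Tcf4* was called with 2 libraries (log2 difference -0.44 ± 0.15, limma adjusted p = 0.0288) and not with 4 (-0.48 ± 0.16, adjusted p = 0.10), and a stricter gate for the other class, with at least 2 of its markers, left -0.18 and -0.08. The other E-proteins *Tcf3* (-0.48 ± 0.24 with 4 libraries) and *Tcf12* (0.38 ± 0.22) were not called (limma adjusted p = 0.341 and 0.427).

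Of 16 genes of E-proteins, ID and HES factors and other bHLH factors 12 were tested, and 1 rose and 5 fell with 4 libraries, 1 and 6 with 2. Among all genes 1.59% rose and 3.57% fell with 4 libraries, and 6.15% and 7.51% with 2. *Id3*, an inhibitor of bHLH factors, stood at 0.710, 0.439, 0.708 and 0.396 in members of WT2, WT3, WT4 and KO4 against 6.64, 3.70, 9.12 and 2.75 (log2 difference -1.97 ± 0.23, limma adjusted p = 2.08e-05). *Id1* (-1.20 ± 0.25) and *Id2* (-0.80 ± 0.21) were also lower in 4 of 4 libraries (limma adjusted p = 0.00812 and 0.0319). The Notch target *Hes5* stood at 0.921, 0.123, 2.93 and 1.84 against 5.48, 3.45, 7.28 and 2.49 (-1.28 ± 0.25, limma adjusted p = 0.00476), and *Neurog2* fell by 0.95 ± 0.23 (limma adjusted p = 0.0224). The gene that rose was *Olig2*, given above among the specification factors and no E-protein, ID or HES gene.

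Within the 97 members *Cspg4* was found together with *Lhfpl3* in 20 cells and without it in 4. In WT4, which gave most of these cells, the numbers were 16 and 3. *Lhfpl3* is a gene of the rule, so this split is a description.

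The share of members with cell cycle genes lay within the range of radial glia and astrocytes in WT2, WT3 and WT4, above it in KO4 with 3 of 7 cells, and above that of neurons in each. After each cell was thinned to 1800 UMIs, 2 of 6 members of WT2 (33.3%), 3 of 15 of WT3 (20%), 18 of 67 of WT4 (26.9%) and 3 of 7 of KO4 (42.9%) held at least 2 of 8 genes of the G2 and M phases of the cell cycle. The shares were 31.1, 32.1, 17.3 and 36.8% in radial glia and astrocytes and 8.99, 6.73, 3.93 and 8.91% in *Neurod6* neurons. Between the glial classes the difference was -1.28 points in WT3 and WT4 (exact permutation p = 1), with WT3 at -12.1 and WT4 at 9.58 points, and 1.42 points in 4 libraries (exact permutation p = 0.875). Unthinned, the shares were 26.7 and 31.3% in members of WT3 and WT4 against 42.9 and 27.8%. Of 30 cell cycle genes 25 were tested with 4 libraries, and *Ube2c* rose (log2 difference 0.77 ± 0.21, limma adjusted p = 0.0440) and *Ccnd2* fell (-0.83 ± 0.21, adjusted p = 0.0236), and 23 were not called. One of 25 in each direction lies near the shares over all genes, 1.59% higher and 3.57% lower. With 2 libraries *Cenpf*, *Cenpe*, *Ube2c* and *Ccnd1* rose and *Hmgb2*, *Rrm2* and *Ccnd2* fell, beside 6.15% and 7.51% over all genes.

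Pan-neuronal genes stood below the level of neurons in both glial classes. *Tubb3* stood at 11.2, 2.79, 5.69 and 11.6 in members of WT2, WT3, WT4 and KO4 against 6.21, 3.0, 6.09 and 11.3, and *Stmn2* at 6.41, 2.22, 4.19 and 13.0 against 4.50, 2.44, 5.40 and 11.5. Neither was called (limma adjusted p = 0.712 and 0.936 with 4 libraries), and WT3 had the lowest and KO4 the highest values in both classes. In these 4 libraries the 16 pan-neuronal genes summed to 35.1 to 72.7 UMIs per 10000 in members and 26.4 to 65.9 in radial glia and astrocytes. In *Neurod6* neurons they summed to 112 to 137. The highest glial sums of the 4 libraries were those of KO4 (72.7 and 65.9, against 112 in its neurons). None of the 15 tested was called with 4 libraries. With 2 libraries 4 of 13 were higher in members (*Map2* by 0.63, *Nsg1* by 0.49, *Stmn3* by 0.92 and *Stmn4* by 0.52 on the log2 scale) and none lower, beside 6.15% higher over all genes.

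The genotype comparison within members rests on 7 KO cells. No KO library reached the planned 10 members, so KO4 was set against WT2, WT3 and WT4 with limma, the single KO library being assumed to vary as the WT libraries did. There is no replicate of KO, so an adjusted p says how far KO4 lay from the spread of the WT libraries and not what differs between genotypes. One gene of 3147 (0.0318%) was called, and 334 had an unadjusted p under 0.05. Without WT2, which held 6 members, 636 genes were called. This gene was *Ppp1r14b*, with a log2 difference of -2.90 ± 0.35, KO minus WT (limma adjusted p = 0.0251). Its UMIs numbered 12 in 6 members of WT2, 69 in 15 of WT3, 330 in 67 of WT4 and 1 in 7 of KO4, and 4 of 6, 13 of 15, 56 of 67 and 1 of 7 members held it. The 3 members of KO4 with 3 or more *Olig1* UMIs held none. In radial glia and astrocytes KO4 (1.25) lay within the WT range of 0.955 to 1.94, and the test of the difference between the classes gave -2.77 on the log2 scale (limma adjusted p = 0.0586). The count tools gave -4.36 (edgeR, adjusted p = 0.776) and -4.30 (DESeq2, adjusted p = 1.0) and did not call it.

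*Tcf4* itself did not differ beyond the spread of the WT libraries in members (4.44 in KO4 against 4.42 to 6.69, log2 difference -0.24 ± 0.37, limma adjusted p = 0.836). Named after their values were seen, *Actb* and *Sox11* lay above the WT range in KO4 and were not called in this fit. *Actb* stood at 131 in members of KO4 against 21.6 to 47.2 in WT, and at 162 against 28.7 to 48.6 in radial glia and astrocytes (members, log2 difference 1.99 ± 0.37, limma adjusted p = 0.401). Under 12 alternatives the log2 difference of *Actb* in members ran from 1.52 to 2.26. Whether limma called *Actb* depended on the setting, and edgeR (1.76) and DESeq2 (1.85) did not call it. *Sox11*, a factor of immature neurons and progenitors, stood at 20.9 against 6.73 to 8.86 in members (log2 difference 1.33 ± 0.32). In KO4, 4 of the 7 members had 1 or 2 *Olig1* UMIs. The pan-neuronal genes summed to 72.7 in members of KO4 against 35.1 to 46.6 in WT2, WT3 and WT4. The part of neuronal RNA in the *Sox11* value was not tested. *Olig2*, *Serpine2* and *Cntn1* were not called between genotypes (limma adjusted p = 0.925, 0.535 and 0.786). KO4 lay outside the range of the 3 WT libraries for 61.5% of the 3147 genes, so a value outside that range says little for a single gene.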

How the data were processed

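Neocortices were profiled with the Chromium 3′ v2 kit, 1 library per animal. Per the paper and the submitters' notes, the authors counted UMIs with Cell Ranger (version 2.1.0 in the notes) on mm10 (GRCm38) and filtered cells with Seurat 2.3.4 in R 3.6.0. The authors deposited unnormalized UMI counts for 4 libraries (WT4, WT5, KO4, KO5). For the other 5 they deposited values scaled to 10000 UMIs in each cell, to which 1 was added before the natural log was taken. From the latter, whole UMIs were recovered within a tolerance of 1e-06. Positions come from GENCODE vM21.

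Groups follow the labels. Some genes of the lists are not reported here. Cells above 1% haemoglobin UMIs were left out. The members and the 14 gene lists were chosen with earlier results of these data known. The list of ribosomal protein genes was set after the values had been seen. The level of a gene is its mean number of UMIs per 10000 over cells, with 1 value for each library and class, so that animals and not cells are replicates. Genes with a mean of at least 0.5 were fitted with limma 3.58.1 (trend, robust, R 4.3.3) on log2(value + 1) with the library as block for classes. Adjusted p are Benjamini-Hochberg values over all genes tested, and a gene is called below 0.05. Shares and other single values were compared by exact permutation of the libraries, 2-sided. Named genes are those of the rule, *Tcf4*, genes that carry a list, and the 10 largest rises and falls with at least 50 UMIs, called with 2 libraries and of 1 direction in these. No caller of doublets was run, and the 5% of cells with the most UMIs were left out as an alternative.

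The fit with at least 5 cells per library, members with 3 or more *Olig1* UMIs, cells chosen by *Olig1* UMIs alone, and the shares of both glial classes were added after seeing the data. The fits of genotypes planned for 10 members were replaced by those with 5. EdgeR 4.0.16 and DESeq2 1.42.0 on summed UMIs, another pseudocount (0.25), no filter, cells thinned to 1800 UMIs and leaving out libraries were alternatives. The fits were first run on simulated data with known changes. Fewer than 10 members in every KO library limit the precision of all genotype values.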

Additional observations from a re-analysis of the deposited data

Results flagged for a closer look

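*Ptgds*, which encodes the lipocalin-type prostaglandin D synthase of meninges and glia, was the single gene of 3140 whose KO minus WT difference was called different between members and radial glia and astrocytes (-3.70 ± 0.47 on the log2 scale, limma adjusted p = 0.0117). In radial glia and astrocytes it stood at 14.9 UMIs per 10000 in KO4 against 0.195 to 0.587 in WT2, WT3 and WT4, and in members at 0, 0.331, 0.185 and 0 in WT2, WT3, WT4 and KO4. Of its 335 UMIs in the 38 radial glia and astrocytes of KO4, 327 came from 1 cell, which also held *Dcn* or *Col1a1*, genes of fibroblasts. The KO side of this difference is 1 library, assumed to vary as the WT libraries did, and the part of that cell in the result was not tested.

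Outside the members, 92 cells met every condition except that on neuronal genes and held 3 or more *Olig1* UMIs, about as many as the 86 members with that many, and their levels are given above. Of these, 83 held *Neurod6*, with 1 UMI in 52, 2 UMIs in 21 and 3 or more in 10, and 25 held *Gad1* or *Gad2*. In 10 groups of 4 or more libraries no share or level had a library that stood far from the rest by Dixon's ratio.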

How the results depend on the processing

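The share of members, WT against KO, kept its negative direction under all 14 alternatives run, from -3.01 to -0.151 points, and -0.923 to -0.634 when 1 library was left out. With the replicate block (pairs of libraries with the same number, all 4 pairs) it was -0.151 points (exact permutation p = 0.75, smallest 0.125). Deviations from the genotype means over 2904 genes correlated at -0.0657, 0.290, 0.301 and 0.493 for libraries with the numbers 1, 2, 4 and 5, and WT5 correlated best with KO4 (0.547), so the numbers were not taken as pairs. No paired analysis was possible for the genes of members because only number 4 was shared among libraries with enough members. The share of radial glia and astrocytes changed direction over all 9 libraries (1.16 points), and the cycling difference did so with 1 cell cycle gene (6.83 points), with 5 cells per library (1.42) and with 1 library left out (-12.1 to 9.58). Calls against radial glia and astrocytes with 2 libraries (440) numbered 117 with DESeq2, 217 after thinning and 162 with 5 cells per library. With 4 libraries (162) they numbered 336 with edgeR's TMM, 377 with RLE scaling, 106 with a pseudocount of 0.25, 23 without a filter, 98 with members of 3 or more *Olig1* UMIs, and 80 (without WT3) to 187 (without KO4) with 1 library left out. Between genotypes (1 call) limma gave 2 without a filter, 14 after thinning, 2 with members of 3 or more *Olig1* UMIs, and 2 (without WT3), 3 (without WT4) or 636 (without WT2), while edgeR gave 0 under both scalings (151 and 135 at an unadjusted p under 0.05) and DESeq2 gave 0 (28). For the difference of this change between classes (1 call) edgeR gave 2 under both scalings, DESeq2, a pseudocount of 0.25, no filter and leaving out the cells with the most UMIs each gave 0, thinning gave 9, members of 3 or more *Olig1* UMIs 14, and leaving out a library 3 (without WT4), 4 (without WT3) or 543 (without WT2). *Tcf4* between genotypes, not called in either case, was -0.24 on the log2 scale and 0.024 with members of 3 or more *Olig1* UMIs. The cause of these changes was not tested. In the fits against radial glia and astrocytes *Apoe*, *Cntn1*, *Fam210b*, *Id3*, *Mt1*, *Mt2*, *Mt3*, *Ncald* and *Tnc* kept their call under all 23 alternatives, and *Tcf4* kept it under 3. A minimum of 20 cells and leaving out a library of the 2-library fit gave no value.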

Other observations

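Genes of ribosomal proteins, a list set after the values had been seen, stood higher in members than in radial glia and astrocytes. With WT3 and WT4, 61 of 78 were called higher (6.15% over all genes) and none lower, with a median log2 difference of 0.38 against -0.02 over all genes tested, and with 4 libraries 15 were called higher (1.59% over all genes) and none lower, with a median of 0.30 against -0.05. In 4 of 4 libraries 41 of the 78 stood higher in members (9.84% over all genes) and none lower. Between genotypes the same genes had a median log2 difference in members of -0.03, and 0 of 78 were called by limma.

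Some genes outside the lists also stood higher in members and are named here after their values were seen. *Enpp2* and *Nxph1*, below 0.5 in radial glia and astrocytes, passed the filter only through the members. Their adjusted p therefore describe and do not test. Without the filter on low levels *Enpp2*, *Nxph1* and *Zeb1* were not called with 4 libraries. *Enpp2*, which encodes autotaxin, stood at 2.28, 1.67, 0.866 and 0.389 UMIs per 10000 in members of WT2, WT3, WT4 and KO4 against 0, 0.0478, 0.0615 and 0.302 (log2 difference 0.99 ± 0.25 with 4 libraries, limma adjusted p = 0.0271), with KO4 showing little difference. *Nxph1*, a secreted ligand of neurexins, stood at 0.921, 2.19, 0.879 and 0.484 against 0.313, 0.183, 0.185 and 0 (0.80 ± 0.23, limma adjusted p = 0.0457). *Zeb1*, a zinc finger factor, stood at 2.13, 3.18, 3.04 and 1.94 against 1.01, 1.33, 1.12 and 0.696 (0.80 ± 0.21, limma adjusted p = 0.0292), without overlap between the classes.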
